A study of Danio rerio with 24 samples.

Results

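Livers of 24 zebrafish were profiled by RNA-seq, and 5 of them held transcripts of the absorptive cells of the gut. The members of this comparison were selected on a measured value. Fish with at least 50 CPM (counts-per-million of the library total) of fabp2, the intestinal fatty acid binding protein, were compared with fish under 5 CPM. This gave 5 carrying fish, 18 fish without, and 1 fish between the limits that was left out. The 24 livers came from 4 genotypes with 6 fish each, all at 2 months, with no sex in the labels. A+ fish carried Tg(lfabp:eGFP-T2A-AAT), which makes human wildtype α1-antitrypsin with eGFP, and Z+ fish carried Tg(lfabp:eGFP-T2A-ZAAT), which makes the Z variant. In both lines the fabp10a promoter drives the transgene in hepatocytes, and transgenic adults were heterozygous and outcrossed to TU wildtype fish. A- and Z- fish were the non-transgenic siblings of the A and Z lines. Each library is 1 fish, and totals ran from about 33898800 to about 44715700 counts. In Z+ replicate 5, vitellogenin genes, the egg yolk precursors made by the female liver, took 51.6% of all counts, and in Z- replicate 2 they took 49.2%.

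The zebrafish gut has no stomach, and the front part of the intestine takes up fat, peptides and sugars. Its main cell, the enterocyte, carries a brush border of microvilli held up by actin bundles. Digestive enzymes and transporters sit in that membrane, and inside the cell binding proteins carry fatty acids to the endoplasmic reticulum, where lipoproteins are assembled. Hepatocytes share the lipoprotein part of this programme but have no brush border of this kind.

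The carrying fish came from 3 of the 4 genotypes. One was A-, 2 were A+ and 2 were Z+, while none of the 6 Z- fish carried. Fisher's exact test of carrying or not by genotype over the 24 fish gave p = 0.695. With 5 carrying fish in all, it cannot show that the genotypes were alike. The fabp2 level was 2265 CPM in A- replicate 6, 873 in Z+ replicate 3, 844 in Z+ replicate 6, 716 in A+ replicate 5 and 75.6 in A+ replicate 6. The last of these is the member just inside the limit, with an exact 95% binomial interval of 72.8 to 78.5 CPM, and A+ replicate 2 is just outside it at 41.8 CPM (39.7 to 44.0). Such intervals cover counting error only. The 18 fish without ranged from 0.0746 to 2.25 CPM with a median of 0.511, the highest being Z- replicate 1. Since fabp2 chose the fish, its own difference is given without a test, and every difference between the carrying fish and the fish without is a description of these libraries.

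In the 3 other markers too, each of the 5 carrying fish lay above the 18 fish without. Villin (vil1), which bundles actin in microvilli, was at 709.7 CPM in A- replicate 6, 231 in Z+ replicate 3, 213 in Z+ replicate 6, 158 in A+ replicate 5 and 15.0 in A+ replicate 6, against 0.0255 to 2.44 in the fish without. The homeobox factor cdx1b, which directs intestinal differentiation, was at 26.4, 9.12, 7.46, 5.43 and 0.802 CPM in the same order of fish. Its median in the fish without was 0 and its highest level among them 0.0839 CPM. Apolipoprotein A-IV (apoa4b.2), a component of lipoproteins secreted by enterocytes, was at 4542, 704, 703, 656 and 142 CPM in the carrying fish. Its level in the fish without reached 70.6 CPM, so of the 4 markers it left the narrowest gap between the groups. In the other 3 markers as in fabp2, A- replicate 6 was the highest carrying fish and A+ replicate 6 the lowest. This order leaves aside A+ replicate 2, which vil1 placed above A+ replicate 6 and apoa4b.2 placed among the fish without.

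**Figure D1:**
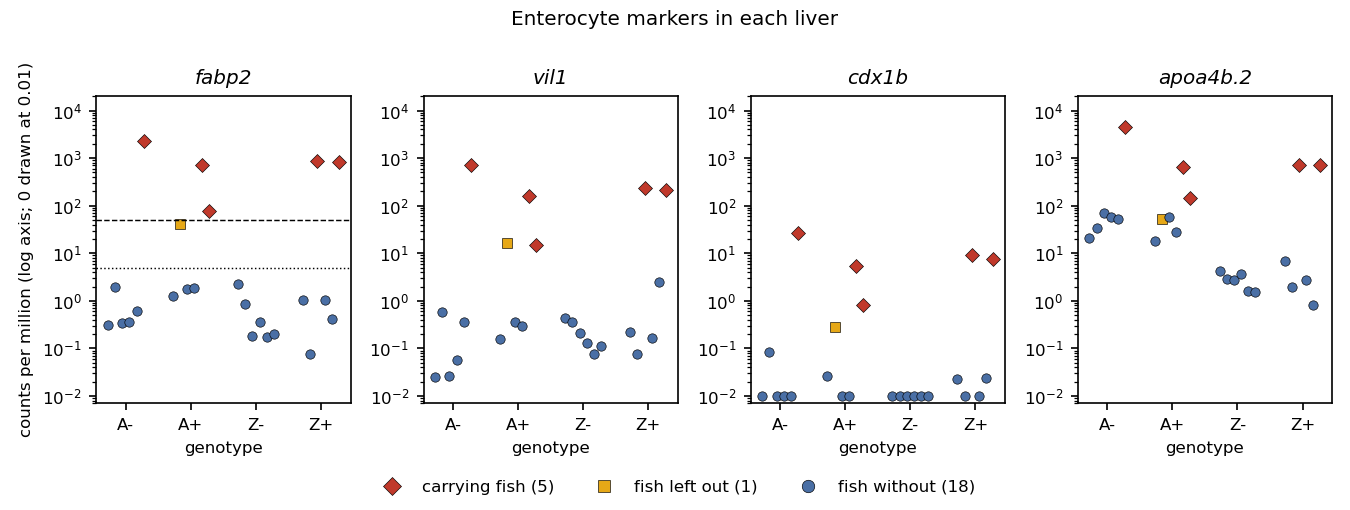
Level of fabp2, vil1, cdx1b and apoa4b.2 in each of 24 livers, in CPM on a log axis, by genotype, with 0 drawn at 0.01. Diamonds are the 5 carrying fish, the square is the fish left out and circles are the 18 fish without; the lines in the first panel mark 50 and 5 CPM. The diamonds lie above every circle in all 4 panels, and apoa4b.2 in the circles is higher in the A line (17.7 to 70.6 CPM) than in the Z line (0.821 to 6.75 CPM).

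Across all genes, more were called higher than lower. With genotype as a second term, 1095 of 11801 genes tested were called higher in the carrying fish, which is 9.28% of genes tested, and 100 were called lower, which is 0.847%. Of the 1095, 657 would have passed the filter (more than 100 counts in at least 3 fish) on the 18 fish without alone. All 100 lower calls would have passed it too, so the filter added to the higher calls only. A call means an adjusted p under 0.05 in edgeR's quasi-likelihood test with Benjamini-Hochberg adjustment. Without A- replicate 6, the fish richest in fabp2, 513 genes were called higher and 21 lower, and without either Z+ replicate 3 or Z+ replicate 6 the lower calls were 51. Sizes differed in the same way: 305 of the higher calls exceeded 3 on the log2 scale and 97 exceeded 8, whereas 6 of the lower calls were below -1. In 203 genes, or 1.72% of those tested, all 5 carrying fish lay above all 18 fish without, and 202 of these were called higher. The 1095, 203 and 202 genes include fabp2, for which the rule fixed the outcome. In no gene (0%) did all 5 lie below. Of the 202 genes, 37 were on 1 of 9 intestinal gene lists, 4 were on other lists and 161 were on none. Summed over the 202 genes, the level was 64982 CPM in A- replicate 6, 18413 in Z+ replicate 3, 16498 in Z+ replicate 6, 13705 in A+ replicate 5 and 1940.0 in A+ replicate 6, against 189.9 to 429.7 CPM in the fish without. Genes kept for standing apart must separate the groups in their sum, so these values give its size only.

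The 9 intestinal lists named 150 genes, of which 133 were in the table and 88 passed the filter of more than 100 counts in at least 3 fish. Of these 88, 58 were called higher, beside 9.28% of all genes, 0 lower and 30 were not called. The 58 include fabp2, for which the rule fixed the outcome. Only 49 of the 88 would have passed the filter on the 18 fish without alone, so the other members were tested because the carrying fish held them, and their count says nothing beyond that. The median difference over the 88 was 3.28 on the log2 scale, against -0.07 over all genes tested. Without A- replicate 6, 46 of the intestinal genes were called higher.

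Brush border and other digestive enzymes were among the most different genes. Of 20 tested, 19 were called higher, and in 16 the groups did not overlap, but only 5 of the 20 passed the filter on the fish without alone. Of all genes tested, 9.28% were called higher and 1.72% had all carrying fish above all fish without. Lactase (lct), which splits milk sugar in mammals, had the largest difference of any gene called, at 11.95 (SE 0.56) on the log2 scale. It was at 131.7 CPM in A- replicate 6, 38.1 in Z+ replicate 3, 27.1 in Z+ replicate 6, 16.2 in A+ replicate 5 and 1.77 in A+ replicate 6, and at most 0.0885 CPM in a fish without. The metalloproteases meprin β (mep1b) and meprin α (mep1a.2) differed by 11.29 (SE 0.87) and 11.21 (SE 0.65). The aminopeptidase anpepa differed by 10.30 (SE 0.62), and alkaline phosphatase of the intestine (alpi.2) by 10.68 (SE 0.78). Enteropeptidase (tmprss15), which activates pancreatic trypsinogen in the gut lumen, was at 48.3 CPM in A- replicate 6 but at 0.442 in A+ replicate 6, and at most 0.0671 in the fish without.

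The most abundant enzymes were acidic chitinases, which digest chitin of crustacean and insect prey. The transcript of chia.1 was at 11155 CPM in A- replicate 6 and at 207 in A+ replicate 6, against a median of 0.39 and a highest level of 9.48 in the fish without. The transcripts of chia.2 and chia.3 ran from 87.8 to 1870.4 and from 174 to 5938 CPM in the carrying fish, and reached at most 1.82 and 4.67 CPM in the fish without. A member of the same family, chia.4, was not called: it was at 0.261 to 4.56 CPM in the carrying fish and at 607 CPM in A+ replicate 2. Counts of chia.4 were highest in A+ replicate 2 (21825), A+ replicate 1 (796), A+ replicate 3 (436) and Z- replicate 5 (432). These fish also held the most counts of the ovary gene buc (31034, 1593, 590 and 611), and a shared source was not tested. The 4 chitinase genes are close relatives, and reads shared between them could be split by the counting. Summed over the list, brush border enzymes stood at 563 to 22970 CPM in carrying fish, with a median of 5949, and at 12.4 to 46.9 CPM in the fish without, with a median of 19.5. Chitinases, which are secreted rather than bound to the membrane, made up most of the sum: chia.1, chia.2 and chia.3 together took 82.6% to 87.4% of it in the carrying fish.

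The scaffold of the microvillus followed the enzymes. Of 9 structural genes tested, 8 were called higher (9.28% of all genes), and 6 had groups that did not overlap (1.72% of all genes). Of the 9, 3 passed the filter on the fish without alone. Cadherin CDHR2, ush1c (harmonin), anks4b and myo7bb belong to the complex that links microvillus tips. They differed by 10.80 (SE 0.70), 9.49 (SE 0.52), 6.53 (SE 0.73) and 7.77 (SE 0.46) on the log2 scale. The actin bundler pls1 was at 2.54 to 117 CPM in carrying fish and at most 0.374 in fish without. Ezrin (ezra) and eps8l3a, which fish without also expressed at medians of 24.4 and 39.2 CPM, differed by 1.13 (SE 0.23) and 0.79 (SE 0.22).

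Transporters divided into 2 kinds. Of 19 tested, 12 were called higher, beside 9.28% of all genes, 7 of them with groups that did not overlap (1.72% of all genes). Of the 19, 12 passed the filter on the fish without alone. The peptide transporter slc15a1b was at 436.7 CPM in A- replicate 6 and at 8.27 in A+ replicate 6, and at most 0.531 in the fish without. The sodium-glucose transporter slc5a1 ran from 18.6 to 1116 CPM in carrying fish and from 0.761 to 4.5 in fish without. The phosphate transporter slc34a2a, the neutral amino acid transporter slc6a19a.1 and the dicarboxylate transporter slc13a2 differed by 11.02 (SE 0.65), 10.53 (SE 0.64) and 9.40 (SE 0.93). The sterol exporter abcg5, which hepatocytes also use, differed by 0.56 (SE 0.16), while its partner abcg8 (0.35, SE 0.20), the fructose transporter slc2a5 (-0.32, SE 0.34) and the water channel aqp8a.1 (0.20, SE 0.15) were not called.

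Lipid handling genes showed the same division, and the reason for it was not tested. Of 13 tested, 6 were called higher, beside 9.28% of all genes, and the median difference was 0.87. Of the 13, 12 passed the filter on the fish without alone. Apolipoprotein apoa4a ran from 25.1 to 763 CPM in carrying fish and reached 16.5 in fish without. Monoacylglycerol acyltransferase (mogat2), which rebuilds dietary fat in the enterocyte, was at 2.71 to 102 CPM against at most 0.751. The liver-type binding protein fabp1b.1 was at 49.7 to 2941 CPM in carrying fish and reached 112 in fish without, so the groups overlapped. The lipoprotein assembly factor mttp (0.31, SE 0.16) and apoa4b.1 (0.27, SE 0.28) were not called, the latter at a median of 1277 CPM in the fish without. The retinol binding protein rbp2a was high in both, with medians of 1265 and 783 CPM, and differed by 0.87 (SE 0.19), a call that was lost without A- replicate 6 (0.72). The same holds for the cholesterol importer NPC1L1, which differed by 1.08 (SE 0.28) over all 23 fish and by 0.75 without that fish. The symbols apoa4b.1, apoa4b.2 and apoa4b.3 name related genes among which reads may be split.

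**Figure D2:**
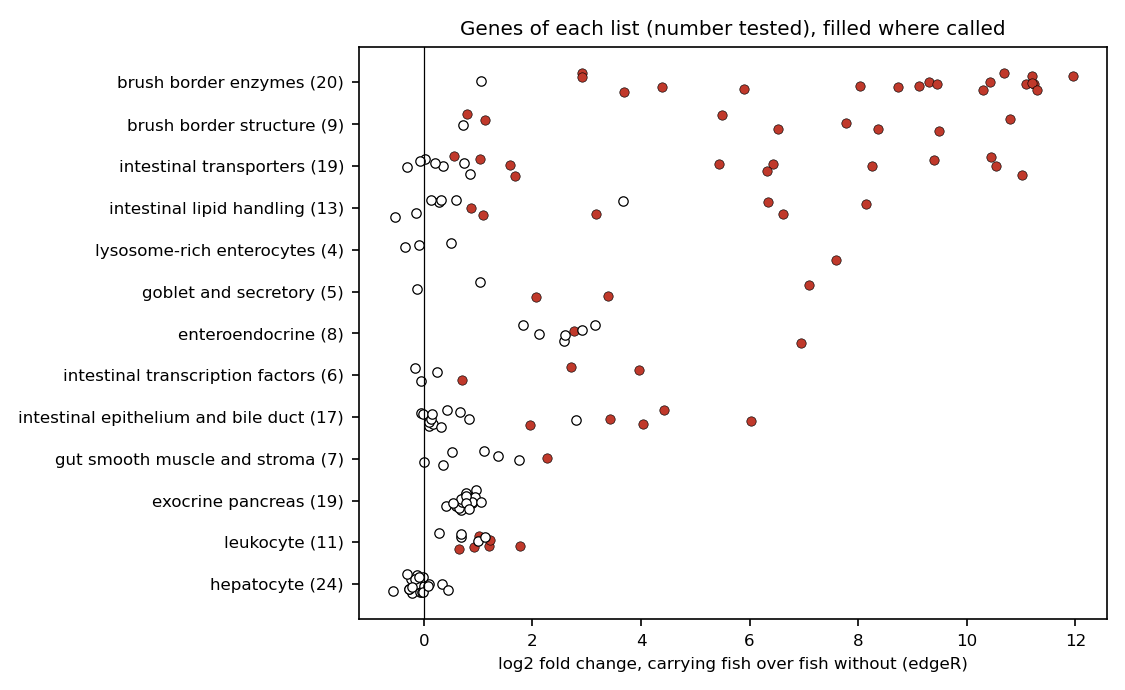
Log2 fold change between carrying fish and fish without (horizontal axis, edgeR) for each tested gene of 13 lists, with the number tested in brackets and filled points for called genes; fabp2 is not drawn. Brush border genes reach 11.95, whereas the 24 hepatocyte genes lie between -0.57 and 0.44 with none called.

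Genes of the hind gut were low, with exceptions. Lysosome-rich enterocytes, which engulf protein in the posterior intestine of fish, are marked by, among others, the receptor genes cubn and amn and the adaptor dab2. In carrying fish cubn was at 0.138 to 1.74 CPM and amn at 0 to 0.357 CPM, and neither passed the filter. The level of dab2 was 1.36 to 3.69 CPM in carrying fish and 0.619 to 29.4 in fish without, a difference of -0.34 (SE 0.61) that was not called. The 29.4 CPM was in A+ replicate 1, where listed ovary genes summed to 278.6 CPM. The listed gene lrp2b had 0 to 82 counts in carrying fish, lowest in A+ replicate 6, and at most 1 in fish without. Another listed gene, ctsbb, had 8 to 70 counts against 3 to 37, and neither passed the filter. Of 4 such genes tested, 1 was called higher, beside 9.28% of all genes. This was the cathepsin ctsl.1, at 0.581 to 21.6 CPM against at most 0.112, which would not have passed the filter on the fish without alone. The lysosomal protease lgmn, at 41.6 to 159 CPM against 23.0 to 87.4, was not called (0.51, SE 0.22). The ileal bile acid genes fabp6 and slc10a2 reached 1.48 and 0.0581 CPM in carrying fish. The fabp6 level was 1.48 CPM in A- replicate 6, 0.866 in Z+ replicate 3, 0.471 in Z+ replicate 6, 0.0290 in A+ replicate 5 and 0.0276 in A+ replicate 6, against at most 0.0447 in the fish without, so the first 3 lay above the fish without.

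Genes of secretory and hormone cells of the gut were called in part. Of 5 goblet and secretory genes tested, 3 were called higher, beside 9.28% of all genes. The membrane mucin muc13b was at 8.79 to 568 CPM in carrying fish and at most 2.17 in fish without. On the fish without alone, 4 of the 5 passed the filter and muc13b did not. The goblet cell genes agr2 and itln1 were called higher, by 3.39 (SE 1.05) and 2.06 (SE 0.57), with overlapping groups, and both calls were lost without A- replicate 6 (1.80 and 1.89). The itln1 call was lost as well without Z+ replicate 6 (1.93), and the agr2 call without A- replicates 1 to 5, A+ replicates 1, 3 and 5, Z- replicate 3, Z+ replicate 3 or Z+ replicate 6, with differences between 3.13 and 3.72. Of 8 enteroendocrine genes tested, 2 were called higher, beside 9.28% of all genes: the gut hormones pyyb, at 0.470 to 22.1 CPM against at most 0.588, and motilin-like mlnl, at 1.16 to 20.6 against 0.432 to 2.33. Only 4 of the 8 passed the filter on the fish without alone, and pyyb and mlnl were not among them. The list summed to 544 CPM in A- replicate 6, 2.90 in A+ replicate 6 and at most 25.2 in the other 3 carrying fish, against 1.18 to 82.4 in the fish without. In A- replicate 6 the largest parts were the glucagon genes gcga (175 CPM) and gcgb (72.2) and the somatostatin gene sst2 (89.1), which pancreatic islets also express and which were not called. Cholecystokinin (ccka), which empties the gallbladder, did not pass the filter. It was at 12.7 CPM in A- replicate 6, 1.83 in A+ replicate 5, 1.81 in Z+ replicate 3, 1.52 in Z+ replicate 6 and 0.194 in A+ replicate 6, and had no count in any of the 18 fish without, where the highest limit that a count of 0 allows, at 3 counts per library, was 0.0885 CPM.

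Among transcription factors other than the marker cdx1b, 3 of 6 tested were called higher, beside 9.28% of all genes, each with overlapping groups. These were pdx1 at 3.97 (SE 1.03), gata5 at 2.72 (SE 0.35) and hnf4g at 0.70 (SE 0.19), the last lost without A- replicate 6 (0.59) and without Z+ replicate 3 (0.61). On the fish without alone, 5 of the 6 passed the filter and pdx1 did not. Factors that liver also uses, gata4 (-0.15, SE 0.24) and gata6 (0.25, SE 0.17), were not called.

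Genes on no list were ranked by likeness to fabp2. By Pearson's correlation of log2 CPM with fabp2 over 24 fish, the most alike were si:dkey-36i7.3 (0.981), plac8.1 (0.98), plac8.2 (0.979), apoea (0.976), epdl2 (0.976), zanl (0.976), chs1 (0.976), cd36 (0.975), pdzk1 (0.972) and nmrk2 (0.971). These values describe a split into high and low fish and carry no test. The most abundant was apolipoprotein E (apoea), at 6981 CPM in A- replicate 6, 1742 as the median of carrying fish and 137 as their lowest, against 0.224 to 7.58 CPM in fish without. The fatty acid transporter cd36 was at 19.4 to 532 CPM and at most 0.490, and chitin synthase (chs1), whose product lines the gut of fish, at 1.71 to 209.98 CPM and at most 0.179. The adhesion receptor adgrg4a and slc22a7b.3, of the organic anion transporter family, were among the 10 largest differences, at 11.09 (SE 0.55) and 11.31 (SE 0.62).

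The levels of the intestinal genes were set against fabp2 fish by fish. Since fabp2 chose the fish and the genes were taken for standing apart in them, the ratios are a description, and the 21 intestinal genes called with overlapping groups are not among them. For the 37 intestinal genes called higher with groups apart, fabp2 among them, A- replicate 6 was the highest and A+ replicate 6 the lowest carrying fish in 37 of 37. While fabp2 itself spanned 29.9-fold between those fish, the counts of a gene per 100 fabp2 counts spanned a median of 2.21-fold over the 36 other genes. This span was under 2-fold for 13 genes and under 3-fold for 29 of the 36. The steadiest was chia.3, with 262, 276, 243, 287 and 230.0 counts per 100 fabp2 counts in A- replicate 6, Z+ replicate 3, Z+ replicate 6, A+ replicate 5 and A+ replicate 6, a coefficient of variation of 9.06%. For vil1 the ratio was 31.3, 26.4, 25.2, 22.1 and 19.8 in that order, and for slc13a2 55.8, 43.4, 46.0, 43.1 and 43.7. A- replicate 6 had the highest ratio for 25 of the 36 genes, while A+ replicate 5 had the lowest for 14 and A+ replicate 6 for 10. The ratio of apoa4b.2 was 200.5 in A- replicate 6 and 188 in A+ replicate 6 against 80.6 to 91.6 in the others, and that of tmprss15 spanned 11.2-fold. Genes that livers without also expressed varied in this: rbp2a spanned 9.31-fold, abcg5 12.7-fold and eps8l3a 16.9-fold, whereas cdh17 spanned 1.78-fold, tm4sf4 1.59-fold and fabp1b.1 2.41-fold.

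**Figure D3:**
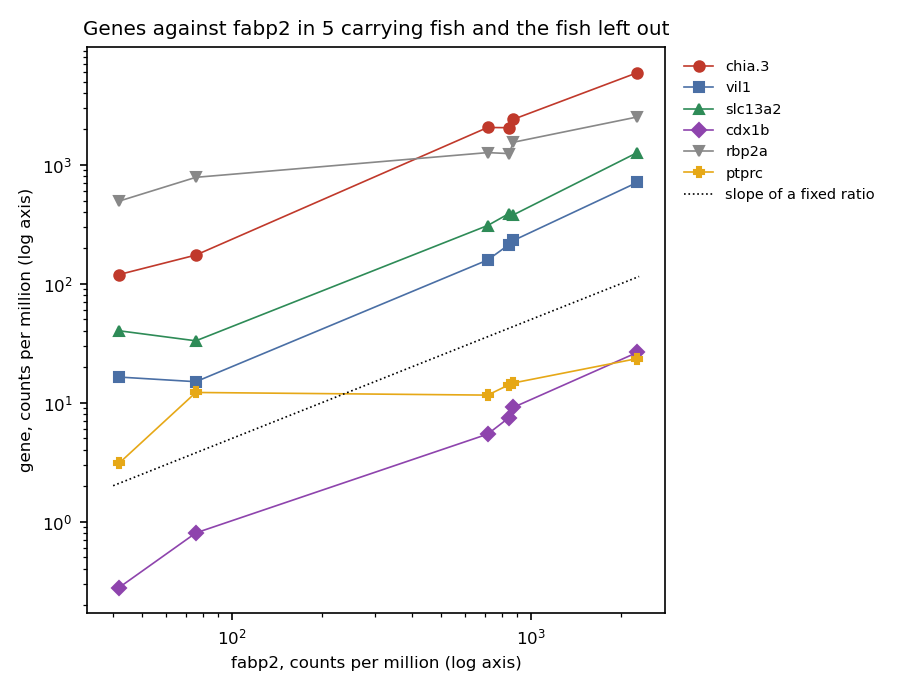
Level of 6 genes against fabp2 in the 5 carrying fish and A+ replicate 2, the lowest on the horizontal axis, in CPM on log axes; the dotted line has the slope of a fixed ratio. The genes chia.3, vil1, slc13a2 and cdx1b run beside that slope, while rbp2a and ptprc, at 11.6 to 23.5 CPM in the carrying fish, rise far less than fabp2.

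A+ replicate 2, which the rule left out, was placed by the other genes near the lowest carrying fish. Of the 37 intestinal genes, it stood above every fish without in 35 and at or above the lowest carrying fish in 20. Over all 202 genes called higher with groups apart, it stood above every fish without in 164, so this place was not particular to the listed genes. The 35 and the 164 include fabp2, whose place between the groups was set by the rule. Its vil1 level of 16.4 CPM exceeded that of A+ replicate 6, and its cdx1b level of 0.278 CPM lay between the groups. Its apoa4b.2 level of 51.3 CPM lay inside the range of the fish without. This liver also held transcripts of egg cells, with 9 tested ovary genes and others summing to 6190 CPM against 0.590 to 278.6 in the fish without. Its epcam level was 606 CPM against 16.2 to 77.0, and dab2 was at 375 CPM. Whether these genes share a source with its intestinal transcripts was not tested.

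The 18 fish without held low counts of the same transcripts. In these fish fabp2 had 3 to 87 counts per library, chia.3 had 1 to 173, chia.1 had 2 to 339, vil1 had 1 to 101 and apoea had 9 to 271.

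Other tissues were read from the same libraries. The labelled tissue held in every fish: the hepatocyte list summed to 118660 to 239598 CPM in carrying fish and 61356 to 245134 CPM in fish without. A- replicate 6 had the lowest sum of the carrying fish, while Z- replicate 2 and Z+ replicate 5 had the lowest without. None of the 24 hepatocyte genes was called by edgeR, with 0 at an unadjusted p under 0.05. Of all genes tested, 9.28% were called higher and 0.847% lower. The hepatocyte binding protein fabp10a had medians of 24033 and 21187 CPM, and the β globin hbba1 medians of 268 and 224 CPM. In bulk RNA, fewer cells of a type and less RNA per cell cannot be told apart.

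Exocrine pancreas, which lies scattered along the gut of fish, gave no call. None of its 19 tested genes passed, beside 9.28% of all genes called higher and 0.847% lower. Their median difference was 0.77, with 0 at an unadjusted p under 0.05 in edgeR. Trypsin (prss1) was at 3332 CPM in A- replicate 6 but at 11.9 in A+ replicate 6, and the highest level of all was 5228 CPM in A+ replicate 1, a fish with 1.26 CPM of fabp2. The islet hormone ins was at 344.7 CPM in A- replicate 6 and at most 1.2 in the other carrying fish, against 0 to 31.3 in the fish without. Without A- replicate 6 the uncalled differences changed sign, from 0.78 to -0.86 for prss1 and from 3.64 to -5.00 for ins. With the pancreas level as a further term, 58 intestinal genes were called higher, the same number as without it.

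Muscle of the gut wall and white blood cells differed by less. Of 7 smooth muscle and stroma genes tested, 1 was called higher, beside 9.28% of all genes. This was tagln, at 2.27 (SE 0.54), and the call was lost without A- replicate 6 (1.22). The actin acta2 was at 2.88 to 125 CPM against 1.55 to 29.4 and was not called, with a difference of 1.75 (SE 0.63), although it passed the threshold in DESeq2 (1.75), in voom (1.76) and without a genotype term (1.98). Of 11 leukocyte genes tested, 6 were called higher, beside 9.28% of all genes. The pan-leukocyte phosphatase ptprc was at 23.5 CPM in A- replicate 6, 14.6 in Z+ replicate 3, 14.1 in Z+ replicate 6, 11.6 in A+ replicate 5 and 12.2 in A+ replicate 6, against 2.24 to 10.04 in fish without. It differed by 1.22 (SE 0.17), lcp1 by 1.19 (SE 0.18) and coro1a by 1.76 (SE 0.20), the lowest carrying fish of the last being at 8.19 CPM against a highest of 8.20 without. In A+ replicate 6, ptprc was close to the other carrying fish, and its ratio to fabp2 spanned 15.5-fold. For eps8l3a and ezra, brush border genes that fish without also expressed, this ratio spanned 16.9-fold and 8.08-fold. Summed over the leukocyte list, carrying fish stood at 199.9 to 434 CPM and fish without at 64.4 to 252 CPM. The part of these cells in the intestinal result was not tested.

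Epithelial genes that bile ducts share with the gut gave 5 higher calls of 17 tested, beside 9.28% of all genes. The intestinal cadherin cdh17 (4.04, SE 0.44), the claudin cldn15la (6.03, SE 0.66) and tm4sf4 (3.42, SE 0.37) were among them. The general epithelial genes epcam (0.09, SE 0.24), krt8 (0.14, SE 0.22) and sox9b (-0.02, SE 0.22), the last a factor of biliary cells, were not called. The summed vitellogenin level ran from 58.6 to 13371 CPM in carrying fish and from 98.8 to 515520 CPM in fish without. The 7 vitellogenin genes were not called, beside 0.847% of all genes called lower, at a median difference of -3.69. Leaving out the 2 fish with the largest vitellogenin share gave 60 intestinal genes called higher.

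**Figure D4:**
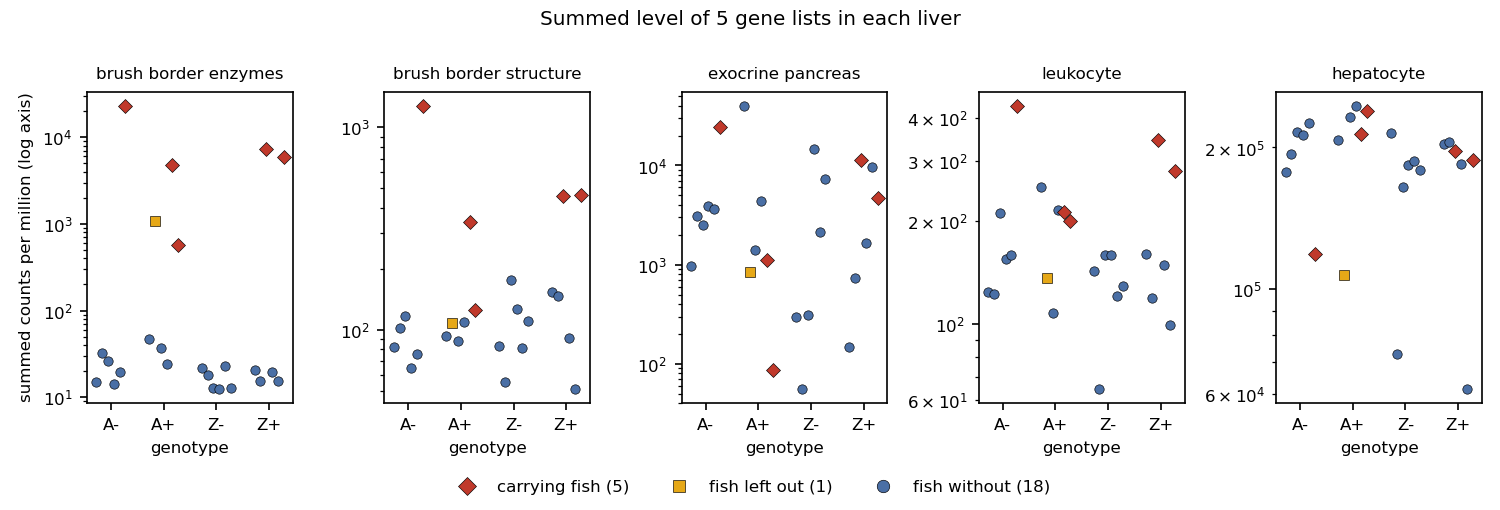
Summed level of 5 gene lists in each of 24 livers, in CPM on log axes whose range differs between panels, by genotype, with diamonds for the 5 carrying fish, the square for the fish left out and circles for the 18 fish without. Brush border enzymes separate the diamonds (563 to 22970 CPM) from the circles (12.4 to 46.9 CPM), whereas exocrine pancreas and hepatocyte levels overlap.

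Genotype comparisons were run with and without the 5 carrying fish. The runs with all fish do not use the fabp2 rule. The runs without the carrying fish do, since fabp2 chose the fish removed, and genes that rise with fabp2 lose their highest values there. P-values of those runs describe the fish kept. The paper's methods do not list A+ against A-. They do list Z+ against Z- and A- together, which was not run here. With all 24 fish, 11 of 88 intestinal genes were higher in Z+ than in Z- and 0 lower, beside 1436 calls or 12.2% of all genes tested. Without the carrying fish, 3 of 49 were higher and 1 lower, beside 797 calls or 7.14% of 11164 genes. Of the 11 genes, 6 were still tested without the carrying fish and 3 were still called. In Z+ against A+, 3 were higher and 2 lower with all fish (11.8% of all genes called), and 2 higher and 3 lower without the carrying fish (8.71%). In A+ against A-, 2 were higher and 0 lower with all fish (10.1%), and 3 higher and 1 lower without (12.2%). In Z- against A-, 0 were higher and 2 lower with all fish (1.17%), and 0 higher and 1 lower without (0.932%). All comparisons came from 1 model of the 4 genotype means with a shared spread. A fish outside a comparison can therefore change its calls through that spread, the filter or the normalization. A- and A+ fish, for example, are in neither group of Z+ against Z-. Counts this small moved with single libraries. The count of 11 in Z+ against Z- became 47 without A- replicate 6, 27 without Z+ replicate 5, 19 without A+ replicate 2 and 18 without A+ replicate 5. It was 3 to 5 without any 1 of the 6 Z- fish and 3 without Z+ replicate 3 or Z+ replicate 6. DESeq2 called 44 intestinal genes there and 46 in Z- against A-. Calls over all genes were not counted in the DESeq2 fits or those without a single fish. Whether these changes were particular to intestinal genes was therefore not tested.

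**Figure D5:**
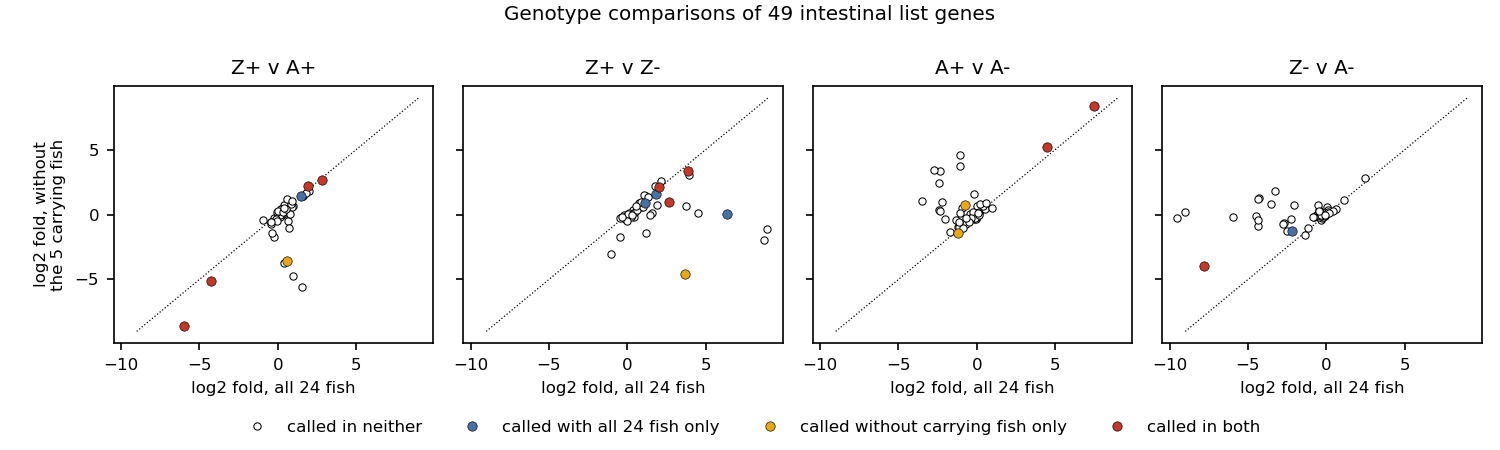
Log2 fold changes of 49 intestinal genes in 4 genotype comparisons, with all 24 fish on the horizontal axis and without the 5 carrying fish on the vertical axis, coloured by where they were called; the dotted line marks equal values. In Z+ against Z-, apoa4b.2 moves from 6.35 to 0.02, while slc26a3.2 stays close to the line at 3.87 and 3.35.

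Apolipoprotein apoa4b.2 was lower in Z- than in A- with and without the carrying fish. With all 24 fish the log2 difference was -7.79 (SE 1.95, edgeR adjusted p = 0.049). That call was lost without any 1 of 15 fish, at -8.04 to -3.94: A- replicate 3, 5 or 6, A+ replicate 1, 3, 4 or 6, each Z- fish, and Z+ replicate 3 or 6. The A+ and Z+ fish among them are in neither group of this comparison and enter it only through the shared model. In the values without the carrying fish, A+ replicate 2 is included. The level was 47.3 ± 19.5 CPM (mean ± SD) in the 5 A- fish, 39.1 ± 19.2 in the 4 A+ fish, 2.80 ± 1.1 in the 6 Z- fish and 3.08 ± 2.58 in the 4 Z+ fish. All 9 fish of the A line, at 17.7 to 70.6 CPM, lay above all 10 of the Z line, at 0.821 to 6.75 CPM. Without the carrying fish, the log2 difference was -3.95 (SE 0.48) for Z- against A- and -3.57 (SE 0.57) for Z+ against A+ (edgeR quasi-likelihood, adjusted p = 0.00013 and 0.0031). The carrying fish removed here were chosen by fabp2 and had the highest apoa4b.2 levels, so these p-values describe the fish kept. With all 24 fish, Z+ against A+ gave 0.59 (SE 1.45, edgeR adjusted p = 0.828). Z+ against Z- gave 6.35 (SE 1.83, edgeR adjusted p = 0.027) with all fish and 0.02 (SE 0.48, edgeR adjusted p = 0.986) without the carrying ones. The call with all fish was lost without Z- replicate 1, 4, 5 or 6 and without Z+ replicate 3 or Z+ replicate 6, at 5.61 to 6.50. The other markers, fabp2, vil1 and cdx1b, were called in no genotype comparison with all 24 fish and did not pass the filter without the carrying fish.

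The chloride and bicarbonate exchanger slc26a3.2 differed by genotype in both sets of fish. Without the carrying fish its mean ± SD was 14.2 ± 1.85 CPM in the 4 Z+ fish, 1.47 ± 0.28 in the 6 Z- fish, 2.89 ± 1.93 in the 4 A+ fish and 3.70 ± 1.99 in the 5 A- fish. The log2 difference was 3.35 (SE 0.34) against Z- and 2.70 (SE 0.39) against A+ (edgeR quasi-likelihood, adjusted p = 0.00012 and 0.0010). Among these non-carrying fish, Z+ (13.0 to 16.95 CPM) did not overlap any other genotype (at most 6.85 CPM). The 2 carrying Z+ fish were higher again, at 42.9 CPM in Z+ replicate 3 and 26.8 in Z+ replicate 6. The phosphate transporter slc34a2b was higher in Z+ by 2.13 (SE 0.46) against Z- and by 2.19 (SE 0.53) against A+ (edgeR quasi-likelihood, adjusted p = 0.0086 and 0.015), although its Z+ values ran from 2.80 to 48.1 CPM and overlapped the rest. For dab2 and chia.4, called higher in A+ than in A- and Z+, A+ replicate 2 held 375 and 607 CPM, and no other fish was above 29.4 and 21.3 CPM.

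The step from fish without to carrying fish was compared between A+ and Z+, with 2 carrying fish in each. The carrying fish were at 716 and 75.6 CPM of fabp2 in A+ and at 873 and 844 in Z+. Genotype and carrying level therefore cannot be told apart here, and the fabp2 step itself was 7.96 in A+ and 10.39 in Z+. No gene was called for a different step by edgeR (0% of 11801), with 976 at an unadjusted p under 0.05. The voom fit with quality weights called 0 genes and DESeq2 called 263. Leaving out A+ replicate 1 gave 2 calls, and leaving out A+ replicate 5 or Z+ replicate 1 gave 1. The step of vil1 was 8.34 in A+ and 7.77 in Z+, and that of cdx1b 8.06 and 9.01. For apoa4b.2 the step was 3.55 in A+ and 7.90 in Z+, a difference of 4.36 (SE 1.09) that did not pass the threshold over all genes (edgeR adjusted p = 0.25). Its steps start from unequal levels, since non-carrying fish were at 17.7 to 58.9 CPM in A+ and 0.821 to 6.75 CPM in Z+.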

How the data were processed

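The deposited file holds gene counts. The authors made poly(A)-selected stranded libraries and used the RNAsik pipeline, in which STAR aligned the reads to GRCz11 plus the transgene sequence and featureCounts counted them. The authors deposited raw counts, which were not normalized. The study set aside fish it judged outliers, whereas all 24 were used here. Levels are counts divided by the column total. Genes with more than 100 counts in at least 3 of 24 fish were tested with edgeR 4.0.16 (TMM factors, quasi-likelihood test, R 4.3.3), with genotype and carrying as terms, and by genotype alone. For fits without the carrying fish the filter was applied again. The prior count for log2 CPM was 1, while the edgeR fits kept that tool's default prior count for log2 differences. Each SE from edgeR is the absolute log2 difference divided by the square root of the quasi-likelihood F value. Alternatives used limma 3.58.1 and DESeq2 1.42.0.

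The members and the gene lists were chosen with earlier results of these data known. Of 367 listed symbols, 323 were found, 3 of them by ignoring case. Genes named are the 4 markers, the 10 largest differences with groups apart, up to 6 called genes for each intestinal list and 3 for each other list, the 10 unlisted genes most like fabp2, and fixed genes of other tissues. The rule also asked for the largest falls with groups apart, of which there were 0. Further genes are named from the lists by role, and were chosen after their values were seen. P-values measure the spread between fish. Coordinates and sequences were not analysed here.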

Additional observations from a re-analysis of the deposited data

Results flagged for a closer look

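Single fish that stood apart from their groups were marked by Dixon's outlier test, and chance alone marks about 1 in 20 groups. Among the 6 A- fish, A- replicate 6 was far above the rest for fabp2 (11.15 on the log2 CPM scale), vil1 (9.47), cdx1b (4.72) and apoa4b.2 (12.15). It is the only carrying fish of that genotype. Since fabp2 sorted the fish and the other markers rise with it, these marks repeat the split, and the chance rate does not apply to them. Among the 6 Z- fish, cdx1b stood apart at -5.26 in Z- replicate 6, in a group where every fish had a count of 0, so the gap reflects library size alone. Among the 5 carrying fish, 1 of 66 named genes was marked: zanl was low in A+ replicate 6 at 2.95 on the log2 CPM scale. The fish left out by the rule, A+ replicate 2, stood above every fish without in 35 of 37 intestinal genes, fabp2 included. It did so in 164 of all 202 genes called higher with groups apart.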

How the results depend on the processing

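Over 16 other fits, none of 64 named genes (53 in DESeq2) reversed. A change of sign was counted as reversed only where the gene was called in either fit. The 1095 higher calls became 2216 with no filter, 1792 with filterByExpr and 406 with a replicate block. The 100 lower calls became 183 with DESeq2, 13 with library totals alone, 178 with filterByExpr, 159 with voom, 9 with the replicate block, 30 with a carrying limit of 20 CPM, 43 with fabp2 as a continuous term and 156 without Z- replicate 2 and Z+ replicate 5 (chosen after seeing the data). The 58 intestinal calls stayed between 48 and 76. Leaving out 1 fish gave 513 to 1202 higher, 21 to 134 lower and 46 to 59 intestinal calls. Of 1466 such gene values, 1444 kept their call or stayed uncalled, 19 lost it and 3 gained it. The 1444 include uncalled genes that changed sign, such as prss1 and ins.

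For intestinal genes by genotype, Z+ against Z- (11) gave 4 without the carrying fish, 5 without these and the fish left out, 3 with library totals, 44 with DESeq2, 7 with no filter and 4 with the replicate block. Z+ against A+ (5) gave 3 with library totals, 8 with no filter and 3 with the block. A+ against A- (2) gave 4 without the carrying fish, 4 with DESeq2 and 0 with the block. Z- against A- (2) gave 1 without the carrying fish, 1 with DESeq2's size factors, 46 with DESeq2, 0 with no filter, 0 with the block and 0 without Z- replicate 2 and Z+ replicate 5. Leaving out 1 fish gave 3 to 47, 2 to 7, 1 to 7 and 0 to 2. Apart from the fit without the carrying fish, calls over all genes were not counted in these fits. The counts therefore cannot be read as particular to intestinal genes. The apoa4b.2 difference of 0.59 in Z+ against A+ turned to -3.57 without the carrying fish and to -3.62 without these and the fish left out. The step comparison (0 calls) gave 263 with DESeq2 and 0 to 2 without 1 fish. The cause of these changes was not tested. Replicate numbers share no stated animal or batch, so the block is not read as a pairing of fish. Of 36 same-numbered pairs, 13 had deviations correlated above 0.1 (-0.45 to 0.77). Differently numbered pairs were not compared, so this cannot decide whether a number stands for shared handling. The highest value was for A- replicate 6 with Z+ replicate 6, both carrying fish. A+ replicate 6 carried too, so replicate number and carrying overlap in the block fits. With 5 carrying fish of unequal fabp2 level, sizes for genes near 0 in the other fish rest on few counts.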
